A study of Mus musculus with 30 samples.

Results

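Of the 20321 genes in the deposited table, 7 genes of cartilage matrix and its control were followed over the regrowth of the mouse digit tip: Matn3, Acan, Hapln1, Chad, Comp, Matn1 and Sox9. They were chosen by symbol, from results of these same libraries in which Matn3 stood out, to ask whether regrowth shows a programme of cartilage genes. Their levels over time are therefore a description, and their calls in the fit across all genes are given only beside the share of all genes called and support nothing. All 7 genes were in the table, and 6 of them, all but Matn1, had enough counts to enter the fit of 13793 genes.

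The tissue was the distal phalanx (P3, the last bone of the digit with its nail and skin) of hindlimb digit 3, of which at most 33% was amputated. Poly(A) RNA of 30 adult male C57Bl/6 mice (9 to 10 weeks old per the study's methods) was sequenced, with 6 mice at 7 d after amputation and 3 at every other time, which were 0 h, 3 h, 6 h, 12 h and 24 h and then 3 d, 14 d and 21 d. Every mouse was amputated, the 0 h mice included, so 0 h is the reference for the later times and no uncut digit is among them. The 6 mice at 7 d include 3 left-foot digits, and every other library is from a right foot. Each library came from a whole P3, so fewer cells of a type and less RNA per cell cannot be told apart. Total expected counts (read counts that RSEM estimates per gene) had a median of 6103690 in a mouse, the shallowest library holding 3167625 and the deepest 16277816. The dates in the sample labels fall in July to August for 16 mice and in November to January for 14 mice. All mice at 3 h and 12 h carry the earlier dates and all mice at 21 d the later ones, so differences within each set of dates are given beside the late results of the 7 genes. The tags in the sample titles recur between times, and 1 of them has the same date at 0 h and at 12 h. These libraries were treated as separate mice, and whether any share an animal was not tested.

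Cartilage is a matrix of collagen II fibrils filled with aggrecan, the proteoglycan encoded by Acan, which draws in water and resists compression. Link protein (Hapln1) fastens aggrecan to hyaluronan, while matrilins (Matn1, Matn3), COMP and chondroadherin (Chad) connect the collagen network with other matrix proteins and with cells. SOX9 is the transcription factor that sets chondrocyte identity and drives many of these genes. The mouse P3 forms in development at least in part by endochondral ossification, through a cartilage template. The regrowing adult P3 is known for making bone directly.

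Matn3, Acan and Hapln1, the 3 genes that were higher at 14 d and 21 d than at 0 h in every mouse, are shown by the 250 bases before their RefSeq starts (build GRCm38.p6, plus strand, 5′ to 3′). They lie at chr12:8947679-8947928 for Matn3, chr7:79052976-79053225 for Acan and chr13:89540386-89540635 for Hapln1. Capitals mark the letters ACAAT, the core that SOX proteins recognise, and TGTGGT, the core that RUNX proteins recognise.
Matn3: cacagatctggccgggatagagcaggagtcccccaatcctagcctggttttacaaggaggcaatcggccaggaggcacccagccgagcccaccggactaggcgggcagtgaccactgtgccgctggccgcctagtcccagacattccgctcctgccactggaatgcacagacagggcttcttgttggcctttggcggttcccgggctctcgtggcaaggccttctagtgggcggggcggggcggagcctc
Acan: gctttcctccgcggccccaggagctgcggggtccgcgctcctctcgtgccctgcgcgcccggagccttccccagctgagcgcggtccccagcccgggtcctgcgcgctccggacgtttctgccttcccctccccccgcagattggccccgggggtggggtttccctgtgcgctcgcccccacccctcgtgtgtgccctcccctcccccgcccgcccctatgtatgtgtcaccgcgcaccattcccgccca
Hapln1: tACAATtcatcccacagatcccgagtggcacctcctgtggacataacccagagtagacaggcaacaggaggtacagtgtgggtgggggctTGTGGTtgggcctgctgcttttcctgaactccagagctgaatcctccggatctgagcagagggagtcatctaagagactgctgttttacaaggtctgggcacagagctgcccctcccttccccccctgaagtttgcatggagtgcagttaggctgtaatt
Both strands were searched for these letters and for TATAAA, the TATA box. Hapln1 held the SOX core 249 to 245 bases and the RUNX core 160 to 155 bases before its start. The windows of Matn3 and Acan held none of the 3 strings. Of 32851 mouse promoter windows of the same length, 27.7% held ACAAT, 14.0% held TGTGGT and 12.4% held TATAAA on either strand. The windows of Acan and Matn3 had 74.4% and 65.2% G or C, against 54.4% for Hapln1 and a median of 52.4% over all windows. Of the other genes, Matn1 held TGTGGT 134 to 129 bases and Chad TATAAA 28 to 23 bases before the start. Comp and Sox9 were not matched to a promoter window. In GENCODE annotation of the same build, the gene bodies span chr12:8947929-8972028 (Matn3), chr7:79053483-79115099 (Acan), chr13:89539796-89611652 (Hapln1), chr11:94565047-94569127 (Chad), chr8:70373558-70382066 (Comp), chr4:130944385-130955475 (Matn1) and chr11:112782224-112787760 (Sox9). The windows of Matn3, Matn1 and Chad end at the base before the annotated gene. That of Acan lies further upstream, and that of Hapln1 lies within the annotated gene.

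Set against each other per transcript length, as TPM (transcripts per fixed total of transcripts), the 7 genes changed order between 0 h and 21 d. At 0 h Comp led with 101 ± 11.6 TPM (SD, n = 3), followed by Chad with 58.6 ± 6.31 TPM and Sox9 with 40.7 ± 12.0 TPM. Acan stood at 9.40 ± 0.504 TPM and Hapln1 at 1.92 ± 0.626 TPM, while Matn1 and Matn3 had no count. At 21 d Comp still led with 89.9 ± 5.29 TPM, but Acan came next with 58.2 ± 11.3 TPM, and Chad, at 8.64 ± 8.13 TPM, stood behind Sox9 (48.4 ± 10.2 TPM) and Hapln1 (14.4 ± 6.32 TPM). The sum of the 7 genes was 212 ± 22.7 TPM at 0 h and 224 ± 26.1 TPM at 21 d. Within that sum, the share of Acan was 4.46% ± 0.376 at 0 h and 25.9% ± 2.23 at 21 d, and the share of Chad was 27.8% ± 4.09 and 4.12% ± 4.22. The ratio of Acan to Chad in TPM was 0.169, 0.165 and 0.149 in the mice at 0 h and 16.4, 15.9 and 2.60 in those at 21 d, with no overlap. At 14 d it was 1.90, 0.63 and 1.73, also above every mouse at 0 h. So the summed level at 21 d was near that of 0 h, and its makeup differed.

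Matn3 encodes matrilin-3, a small cartilage matrix protein that binds collagen II and IX fibrils and COMP. At 0 h, 3 h, 12 h and 24 h, none of the 12 mice had a count. A few counts were found at other early times, 1 in a mouse at 6 h and 2 in each of 2 mice at 3 d. At 7 d the 6 mice held 3, 7, 0, 13, 4 and 0 counts, both mice at 0 being left-foot digits, as was the highest. At 14 d the level was 3.00, 1.34 and 3.73 CPM (counts scaled to library size, with TMM factors, for comparison between mice), and at 21 d it was 5.37, 7.46 and 5.13 CPM. Every mouse at 14 d and 21 d was above every mouse from 0 h to 3 d, and the mice at 21 d were above those at 14 d without overlap. The share of all genes that separate in these ways was not computed. Summed over mice, 219 counts were found at 21 d, 73 at 14 d and 27 at 7 d, against 0 of 28822923 counts at 0 h, which allows up to 0.107 CPM. Set against that floor of 3 counts over the 0 h mice, the pooled level of Matn3 was 58.5-fold at 21 d, 25.4-fold at 14 d and 7.11-fold at 7 d. These folds bound the 0 h level only. They leave out the error of the later level and the spread between mice. Between 7 d and 21 d Matn3 differed by 2.96 in log2 fold change (SE, the standard error, 0.91), with the 3 mice at 21 d above the 6 at 7 d (4.03% of all genes were higher without overlap in this contrast). Within the later dates, 21 d differed from 0 h by 2.79 on the log2(CPM + 1) scale (3 against 2 mice). The value over all mice had to be the same, as Matn3 was 0 in every 0 h mouse and 21 d holds later dates only. At 14 d it differed by 2.0 within the earlier dates (1 against 1) and by 1.73 within the later ones (2 against 2). Matn3 stayed low per length even at its highest, at 3.98 ± 1.0 TPM at 21 d.

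**Figure D1:**
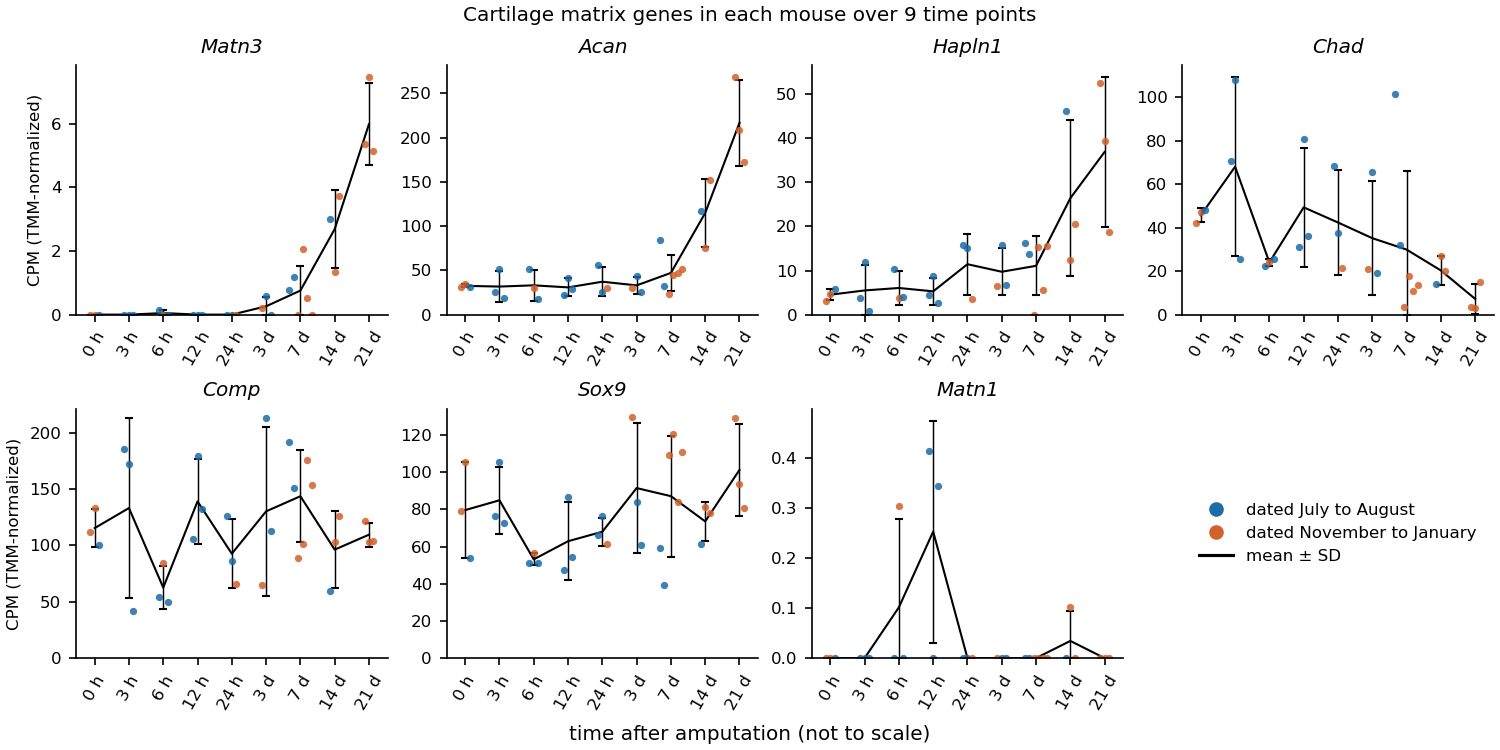
Level of each of the 7 genes in every mouse (points, CPM normalized by TMM, linear axes that start at 0) over the 9 time points, with the mean and SD of each time point (bars that would pass below 0 stop there). Colours give the dates in the labels. Matn3, Acan and Hapln1 had their highest mean at 21 d, Chad had its lowest mean there, and Comp and Sox9 at 21 d overlapped 0 h.

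Acan, the aggrecan gene, was detected in all mice at all times and its mean was between 30.8 and 37.2 CPM at every time from 0 h to 3 d, with the 3 mice at 0 h at 31.4, 34.5 and 31.7 CPM. At 7 d the lowest, median and highest of 6 mice were 23.6, 45.6 and 84.2 CPM, which overlapped 0 h on both sides. At 14 d the mice stood at 118, 75.1 and 152 CPM and at 21 d at 269, 208 and 173 CPM. All mice at 14 d and 21 d were above all mice at 0 h, and those at 21 d above those at 14 d. For 21 d above 14 d, the share of all genes was not computed. The log2 fold change against 0 h was 0.53 (SE 0.36) at 7 d, 1.82 (SE 0.41, 3.53-fold) at 14 d and 2.74 (SE 0.43, 6.66-fold) at 21 d. Against 7 d, it was 1.29 (SE 0.34) at 14 d and 2.21 (SE 0.33) at 21 d. In the order of mean levels, 21 d and 14 d did not overlap, and every other pair of neighbours did. Among the mice with the later dates alone, the difference at 21 d was 2.66 on the log2(CPM + 1) scale (3 against 2 mice), beside 2.68 over all mice. At 14 d it was 1.86 within the earlier dates (1 against 1) and 1.67 within the later ones (2 against 2).

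Hapln1, whose link protein holds aggrecan on hyaluronan, was higher late too, from a lower level and with more spread. It was at 3.2, 4.58 and 5.76 CPM at 0 h, at 46.3, 12.5 and 20.4 CPM at 14 d, and at 52.4, 39.4 and 18.8 CPM at 21 d. All mice at both late times were above all mice at 0 h, while 14 d and 21 d overlapped each other. The log2 fold change was 2.55 (SE 0.82) at 14 d and 3.04 (SE 0.83, 8.25-fold) at 21 d, and neither reached an adjusted p under 0.05. At 3 d, all mice (6.49, 15.9 and 6.80 CPM) already lay above 0 h, as did those of 8.16% of all genes. At 7 d the level ran from 0 to 16.3 CPM with a median of 14.5 CPM, and the mouse at 0, a left-foot digit, had no Hapln1 count at all. Within the later dates, 21 d differed from 0 h by 2.85 on the log2(CPM + 1) scale, beside 2.69 over all mice, and 14 d differed by 2.81 within the earlier and 1.81 within the later dates.

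Chad encodes chondroadherin, a leucine-rich repeat protein of cartilage that binds chondrocytes and collagen II, and it was lower late. It was at 41.9, 47.2 and 48.0 CPM at 0 h, and at 14.0, 27.2 and 19.8 CPM at 14 d. At 21 d it was at 3.70, 2.96 and 15 CPM. All mice at 14 d and 21 d were below all mice at 0 h, as were those at 6 h (22.2, 24.2 and 25.6 CPM), where this held for 9.19% of all genes. The log2 fold change was -1.16 (SE 0.74) at 14 d and -2.69 (SE 0.79) at 21 d, both with an adjusted p of 0.05 or more. At 7 d the 6 mice spread from 3.69 to 102 CPM with a median of 15.8 CPM, the 2 highest being those with the earlier dates. Against 0 h, 7 d differed by 0.25 within the earlier dates (2 against 1 mice) and by -2.03 within the later ones (4 against 2) on the log2(CPM + 1) scale. At 21 d the difference was -2.77 within the later dates and -2.80 over all mice, and at 14 d it was -1.71 within the earlier and -0.91 within the later dates.

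Comp, a pentameric thrombospondin of cartilage and tendon, and Sox9 had levels at 21 d that overlapped those at 0 h. Comp was at 112, 133 and 100.3 CPM at 0 h and at 122, 103 and 104 CPM at 21 d, with a log2 fold change of -0.08 (SE 0.40). It was lowest at 6 h (53.7, 84.3 and 49.5 CPM, all below 0 h), where the log2 fold change was -0.88 (SE 0.41). Sox9 was at 79.4, 106 and 53.8 CPM at 0 h and at 129, 93.7 and 80.9 CPM at 21 d, with a log2 fold change of 0.34 (SE 0.32) and overlapping mice. Within the later dates, 21 d differed from 0 h by -0.16 for Comp and 0.12 for Sox9 on the log2(CPM + 1) scale, beside -0.07 and 0.37 over all mice. Over the whole series the highest Sox9 mouse was 3.31 times the lowest, against 5.11 times for Comp, 15.6 times for Acan and 36.5 times for Chad. Neither gene passed the test at any time, and neighbours in the order of mean levels overlapped for both. Sox9 is also expressed in skin appendages and nail, which these libraries hold. For Sox9, 13.3% of the expected counts were whole numbers (within 0.005), against 100% for Matn3, Matn1 and Chad, and a value that is not whole comes from reads that RSEM shared out between genes.

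Matn1, which encodes matrilin-1, a matrilin found mainly in cartilage, was near the limit of detection. It had 9 counts in all 30 mice together, in 4 mice (3 counts in a mouse at 6 h, 3 and 2 counts in 2 mice at 12 h, and 1 count in a mouse at 14 d). At 21 d, where Matn3 had 219 counts, it had 0 of 37973435 counts, which allows up to 0.0854 CPM. Such floors take in the error of counting alone, because copies made by PCR do not count separate molecules.

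**Figure D2:**
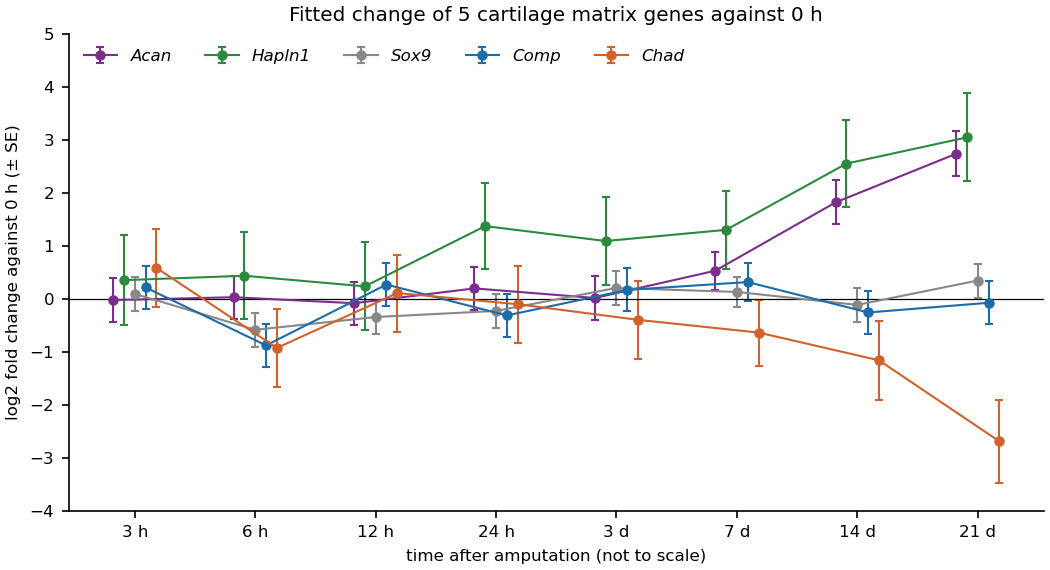
Log2 fold change against 0 h (± SE, from the fit of all 30 mice) for 5 of the 7 genes at each later time. Acan and Hapln1 reached 2.74 and 3.04 at 21 d, Chad -2.69, while Comp was at -0.08 and Sox9 at 0.34. Matn3 is not drawn because its 0 h level was 0, nor is Matn1, which was not fitted.

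Over the 9 time points, 3 of the 6 fitted genes (Acan, Matn3 and Hapln1) had an adjusted p under 0.05 in edgeR's quasi-likelihood F-test, where 9.01% of all genes did. With 1 mouse left out, Acan and Matn3 passed in all 30 fits, whereas Hapln1 failed to pass in 9 of 30 (edgeR adjusted p up to 0.128) and Chad passed in 1. Against 0 h, Acan and Matn3 passed as higher at 14 d (1.48% of all genes passed as higher) and at 21 d (1.73%). From 7 d to 21 d, Acan alone passed (0.964%). In the other 7 contrasts none of the 6 genes passed in edgeR's test, where 0.254% of all genes did at 3 h, 0.189% at 6 h, 0.167% at 12 h, 0.493% at 24 h, 0.551% at 3 d, 2.34% at 7 d and 0.435% from 7 d to 14 d. At an unadjusted p under 0.05 there was 1 gene at 6 h, 3 d, 7 d and from 7 d to 14 d and 0 at the others, and DESeq2's test called Matn3 at 7 d and Acan from 7 d to 14 d. At 21 d, 3 of the 6 genes had every mouse above 0 h, as had 12.5% of all genes, and 1 had every mouse below, as had 10.2%, and at 14 d the counts were the same 3 and 1 beside 13.6% and 11.8%. These genes were picked from these contrasts, so their counts describe the choice. The calls at 14 d did not all hold with 1 mouse left out. Without any one of the 3 mice at 0 h, or without replicate 3 at 14 d, 0 of the 6 genes passed. Without replicate 1 at 14 d only Acan did. The log2 fold change of Acan at 14 d was 1.80, 1.88 and 1.82 without each 0 h mouse in turn, beside 1.82 over all mice. At 21 d Acan passed whichever of the 30 mice was left out, with a log2 fold change between 2.55 and 2.87, whereas Matn3 did not pass without replicate 1 or replicate 2 at 0 h. Hapln1 and Chad both passed at 21 d without the left-foot mice, with DESeq2's test, without replicate 3 at 7 d or without replicate 3 at 21 d, which gave 4 genes in each case. Without replicate 3 at 7 d, the left-foot digit with no Hapln1 count, Hapln1 also passed at 14 d.

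A further 56 genes, 41 of them with enough counts, were read from 6 lists. Besides genes of cartilage, the lists hold relatives of the 7 genes, aggrecan-cleaving enzymes and genes that are also made in other tissues. Over the time course 21 of the 41 passed the F-test, against 9.01% of all genes. The counts per list were unequal: 5 of 6 cartilage collagens and 7 of 8 growth plate genes passed, but 0 of 8 other cartilage matrix genes and 0 of 6 chondrocyte regulators (2 and 1 at an unadjusted p under 0.05, with counts per list made by edgeR alone). At 21 d, 10 of the 41 were higher than at 0 h and 0 lower, against 1.73% and 0.21% of all genes. Of these 10, 2 were cartilage collagens, 5 growth plate genes, 2 relatives of the 7 genes and 1 an aggrecan-cleaving enzyme. The lists of other cartilage matrix and of chondrocyte regulators held 0 of them. The median log2 fold change of the 41 genes was 0.58 at 21 d, beside -0.0044 for all genes tested. The lists were chosen with earlier results of these data known. Their counts and medians, here and below, are therefore a description and not independent support for a cartilage programme.

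Of the cartilage collagens, Col2a1 and Col11a1 rose by 21 d. Col2a1, which encodes the main collagen of cartilage fibrils, was at 3.52, 10.6 and 5.44 CPM at 0 h and at 12.7, 5.66 and 6.93 CPM at 14 d, where the groups overlapped. At 21 d it was at 204, 73.0 and 27.2 CPM, all above 0 h, with a log2 fold change of 3.97 (SE 0.80, edgeR adjusted p = 0.00425). That call was lost without replicate 1 at 0 h (log2 fold change 3.64) or replicate 1 at 21 d (2.95), with an edgeR adjusted p up to 0.0878. At 14 d, Acan and Matn3 were above 0 h in every mouse while Col2a1 overlapped it. Col11a1, whose chain sits in the core of the same fibrils but is also made in bone and tendon, was at 45.6, 104 and 42.4 CPM at 0 h and at 480, 343 and 488 CPM at 14 d. At 21 d it was at 706, 549.7 and 514 CPM, with a log2 fold change of 3.2 (SE 0.37, edgeR adjusted p = 4.3e-06). Col11a2 was higher at 14 d (log2 fold change 1.61, SE 0.39, edgeR adjusted p = 0.0267) and had a value of 1.16 (SE 0.39, adjusted p = 0.172) at 21 d. Its call at 14 d was lost without replicate 1 or 3 at 0 h or any 1 mouse at 14 d (edgeR adjusted p up to 0.236). Against 7 d, Col11a2 passed as higher at 14 d (log2 fold change 2.26) and at 21 d (1.82), in all 30 fits with 1 mouse left out. At 3 d it had passed as lower than at 0 h. The collagen IX chains, which sit on the fibril surface where matrilin-3 binds, were not alike. Col9a2 was at 3.28, 6.18 and 0.640 CPM at 0 h and at 45.4, 13.7 and 13.2 CPM at 21 d, and it passed against 7 d (log2 fold change 2.40, SE 0.63, edgeR adjusted p = 0.0463) but not against 0 h (adjusted p = 0.0654). The call against 7 d was lost in 25 of 30 fits with 1 mouse left out, with a log2 fold change from 1.53 to 2.70 and an edgeR adjusted p up to 0.698. Col9a1 had 9 counts in the 3 mice at 0 h and was at 7.96, 5.08 and 2.17 CPM at 21 d, with a log2 fold change of 3.99 (SE 1.24, adjusted p = 0.121). Col9a3 was at 8.45 CPM at 0 h and 8.40 CPM at 21 d, and did not pass in any comparison. Within the later dates, Col2a1 differed by 3.38 and Col11a1 by 3.07 between 21 d and 0 h on the log2(CPM + 1) scale, beside 3.44 and 3.3 over all mice.

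**Figure D3:**
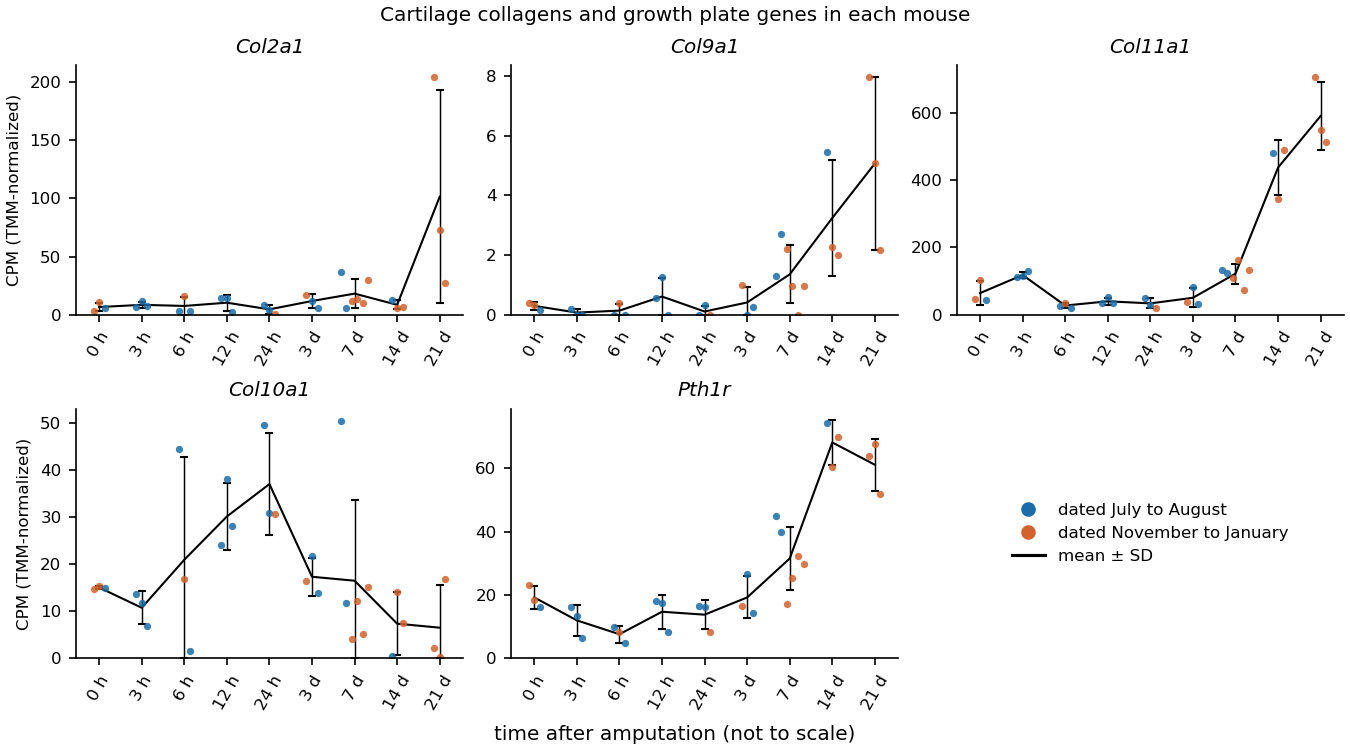
Level of Col2a1, Col9a1, Col11a1, Col10a1 and Pth1r in every mouse (points, CPM normalized by TMM, linear axes that start at 0), with mean and SD per time point (bars that would pass below 0 stop there). Col2a1 was highest at 21 d, most of all in replicate 1 (204 CPM), Col11a1 and Pth1r were high at 14 d and 21 d, and Col10a1, the hypertrophic collagen, was not.

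Genes of the growth plate and of cartilage hypertrophy were divided. Col10a1, the collagen that defines hypertrophic chondrocytes, was at 14.8, 15.3 and 14.9 CPM at 0 h and at 2.22, 0.322 and 16.9 CPM at 21 d. Its log2 fold change was -1.26 (SE 0.93, edgeR adjusted p = 0.881), and its highest mean was 37.0 CPM at 24 h, where no call was made. Ihh, the hedgehog ligand of prehypertrophic cartilage, had at most 10 counts in any mouse and was not fitted. Pth1r, the receptor through which parathyroid hormone-related protein acts on growth plate chondrocytes and also on osteoblasts, was at 23.2, 18.2 and 16.2 CPM at 0 h. It was at 74.3, 60.4 and 69.9 CPM at 14 d (log2 fold change 1.82, SE 0.35, adjusted p = 0.00265) and at 63.9, 67.7 and 51.9 CPM at 21 d (1.67, SE 0.34, adjusted p = 0.00512). The other genes of the list that rose are bone genes as well: Ibsp (bone sialoprotein) by 4.37 (SE 0.55, adjusted p = 1.02e-05), Alpl (alkaline phosphatase of mineralizing cells) by 2.67 (SE 0.43, adjusted p = 0.000403), Mmp13 (collagenase-3) by 3.67 (SE 0.75, adjusted p = 0.0045) and Spp1 (osteopontin) by 1.79 (SE 0.38, adjusted p = 0.00695) on the log2 scale at 21 d. With 1 mouse left out, the calls of Ibsp and Alpl at 21 d and of Pth1r at 14 d held in all 30 fits. At 21 d that of Pth1r was lost without replicate 3 at 0 h (edgeR adjusted p = 0.0542), that of Mmp13 without replicate 1 or 2 at 0 h (up to 0.0645) and that of Spp1 without replicate 1 at 0 h or at 21 d (up to 0.0857). At 12 h Mmp13 had a log2 fold change of 3.87 (SE 0.75, edgeR adjusted p = 0.0176), when none of the 7 genes passed, but it did not pass without replicate 1 or 2 at 0 h or replicate 2 or 3 at 12 h (up to 0.255). At 21 d, 5 of the 8 fitted genes of this list were higher than at 0 h and 0 lower, against 1.73% and 0.21% of all genes. All 5 are expressed by bone cells too.

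The 8 fitted genes of the list of other cartilage matrix were mostly opposite in sign to Acan, Hapln1 and Matn3: at 21 d, 6 of them had a log2 fold change below 0, with a list median of -1.54, and 0 passed in edgeR's test (3 at an unadjusted p under 0.05). Prg4, which encodes lubricin of joint surfaces and tendon, had a mean of 285 CPM at 0 h and 73.1 CPM at 21 d (log2 fold change -1.97, SE 0.87, adjusted p = 0.438). Clec3a, a cartilage lectin, had 7.55 and 0.701 CPM (log2 fold change -3.53, SE 1.1, adjusted p = 0.11), with every mouse at 21 d below 0 h, as in 10.2% of all genes. Cilp, an intermediate-layer protein of articular cartilage, had 85.9 and 34.3 CPM (log2 fold change -1.33, SE 0.44, adjusted p = 0.171), again without overlap. Chad, at -2.69, had its sign in common with these genes. Matn4, a further matrilin, had 1.80 CPM at 0 h and 3.17 CPM at 21 d, with overlapping mice.

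None of the chondrocyte regulators passed in any comparison. Sox5 and Sox6, the partners of SOX9 on cartilage enhancers, were at 4.34 and 10.2 CPM at 0 h and at 1.63 and 8.86 CPM at 21 d. Their log2 fold changes were -1.40 (SE 0.76, edgeR adjusted p = 0.65) and -0.20 (SE 0.37, adjusted p = 1). Sox5 was lower at 21 d in all 3 mice than in any mouse at 0 h, as were 10.2% of all genes, and Sox6 overlapped. Nkx3-2, Foxa3 and Gdf5 had too few counts to be fitted.

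**Figure D4:**
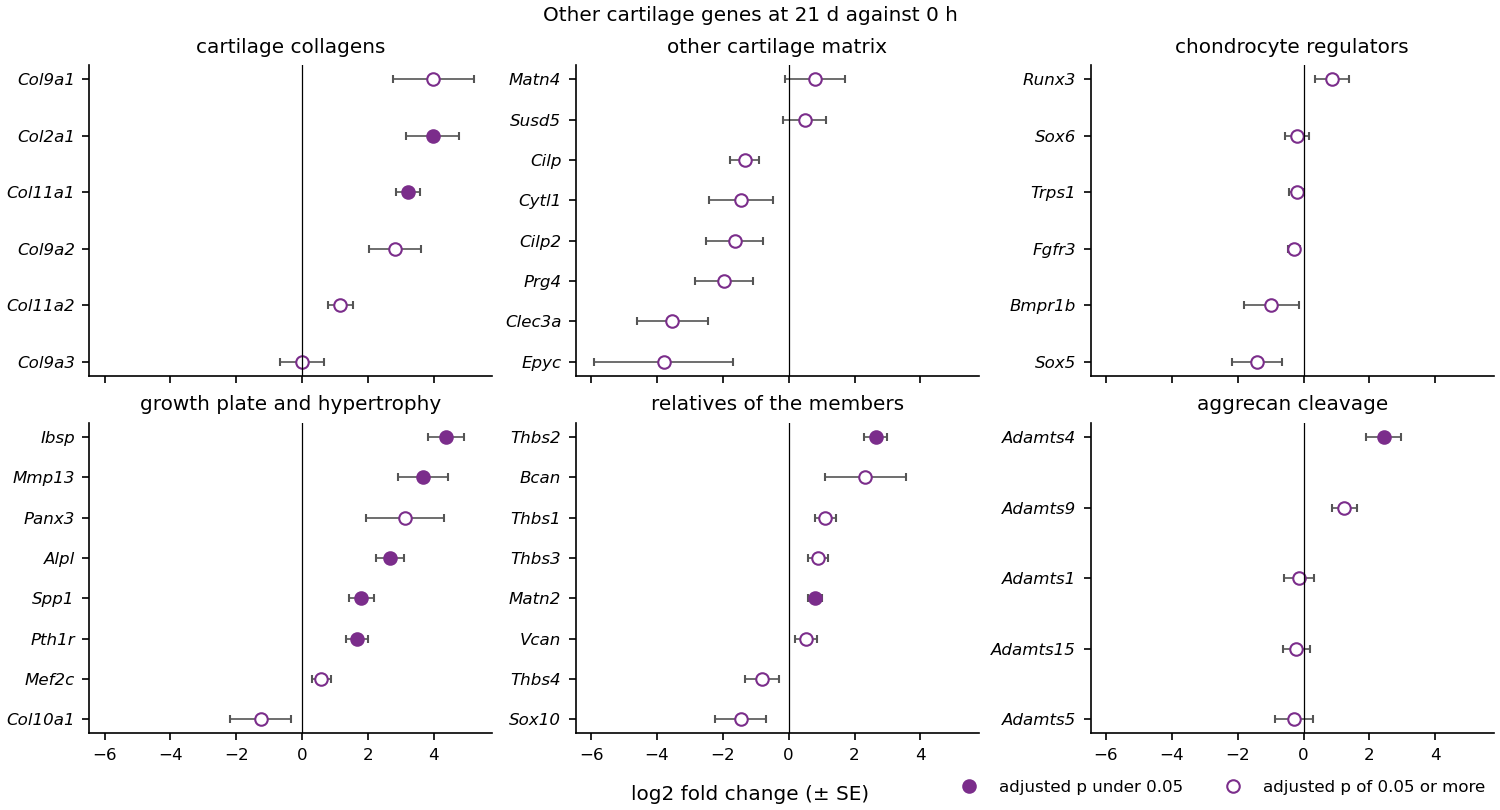
Log2 fold change at 21 d against 0 h (± SE, from the fit of all 30 mice) of the 41 fitted genes in 6 lists. Filled points have an adjusted p under 0.05. They number 2 among the collagens, 5 among the growth plate genes, 2 among the relatives of the 7 genes and 1 among the aggrecan-cleaving enzymes, all of them above 0.

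Genes related in sequence to the 7 were followed as well. Of 8 fitted relatives, 6 passed over the time course and 2 were higher at 21 d, against 9.01% and 1.73% of all genes. Thbs2, a thrombospondin related to COMP that is made by many mesenchymal cells, was at 96.1, 79.9 and 70.1 CPM at 0 h and at 645, 565 and 325 CPM at 21 d (log2 fold change 2.64, SE 0.35, edgeR adjusted p = 1.74e-05). Matn2, the matrilin of many non-cartilage tissues, was at 75, 83.0 and 70.9 CPM at 0 h and at 150.3, 134 and 114 CPM at 21 d (log2 fold change 0.80, SE 0.22, adjusted p = 0.0485). The call of Thbs2 held in all 30 fits with 1 mouse left out, and that of Matn2 was lost in 21 of them (edgeR adjusted p up to 0.358). Thbs4, a thrombospondin of tendon and muscle, had 235 CPM at 0 h and 134 CPM at 21 d (log2 fold change -0.81, SE 0.50, adjusted p = 0.768). Thbs1, Thbs3, Bcan and Vcan passed over the time course but not at 21 d against 0 h. Against 7 d, Thbs1 was higher at 21 d by 1.71 (SE 0.27, adjusted p = 0.000758), in all 30 fits with 1 mouse left out. At 14 d it was higher than at 7 d by 1.43 (SE 0.27, adjusted p = 0.0095), a call lost without replicate 1 at 14 d (0.956, adjusted p = 0.296). Thbs3 was higher at 21 d than at 7 d by 1.0 (SE 0.26, adjusted p = 0.0438), a call lost in 23 of the 30. Vcan (versican, the lectican of loose mesenchyme) had a log2 fold change of 0.54 (SE 0.34, adjusted p = 0.78) at 21 d, where Acan was at 2.74.

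Of 5 enzymes that cleave aggrecan, Adamts4, Adamts9 and Adamts1 passed over the time course, where 9.01% of all genes did. Adamts4 was at 2.56, 6.82 and 9.12 CPM at 0 h and at 77.7, 71.0 and 40.2 CPM at 24 h, a log2 fold change of 3.39 (SE 0.55, edgeR adjusted p = 0.000998) that passed in all 30 fits with 1 mouse left out. At 21 d the value was 2.43 (SE 0.53, adjusted p = 0.00897), which did not pass without replicate 1 at 0 h or at 21 d (up to 0.138). Adamts9 was higher at 24 h by 2.16 (SE 0.37, adjusted p = 0.00266) and at 14 d by 1.86 (SE 0.37, adjusted p = 0.00451). Its call at 24 h was lost without replicate 1 at 0 h (edgeR adjusted p = 0.0557), and at 14 d without replicate 1 or 2 at 0 h (up to 0.0607). Adamts5, the main aggrecanase of mouse articular cartilage, had 19.9 CPM at 0 h and 16.4 CPM at 21 d (log2 fold change -0.29, SE 0.59).

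Marker genes of other cell types in the digit were summed too, and the sums of some types differed at the late times. Summed TPM of 5 tenocyte markers (all detected at every time) ran from 91.1 to 143 at 0 h and from 214 to 388 at 21 d. Fmod, the most abundant, passed as higher at 21 d, and 2 of the 5 had a log2 fold change below 0 there. For 8 osteoblast and osteocyte markers the range was 131 to 202 at 0 h, 25.5 to 105 at 7 d, then 243 to 395 at 14 d, and 107 to 202 at 21 d. All 8 were detected at 0 h, 14 d and 21 d, and 1 of them (Sp7) was called higher at 14 d and 21 d. At 21 d, 5 of the 8 had a log2 fold change below 0. The 5 osteoclast markers ran from 67.1 to 111 at 0 h, where Calcr was at 0 in every mouse, from 972 to 3276 at 7 d and, at 21 d, from 250.1 to 678. The 5 keratinocyte markers ran from 57491 to 62397 at 0 h and from 24874 to 50509 at 21 d, without overlap. Nail and appendage epithelium (6 markers, 186 to 243 at 0 h and 199 to 231 at 21 d) overlapped between those times. The 4 Schwann cell markers ran from 140.1 to 152 at 0 h and from 85.5 to 133 at 21 d, and the 4 skeletal muscle markers from 2.05 to 73.4 and from 2.14 to 5.99, with Ckm and Myh4 at 0 in every mouse at 21 d. No fitted marker of keratinocytes, nail and appendage epithelium, Schwann cells or skeletal muscle passed in edgeR's test at 14 d or 21 d against 0 h. The 7 chondrocyte markers, 5 of them from the genes described here, ran from 44.0 to 69.3 at 0 h, with Matn1 and Matn3 at 0, and from 109 to 235 at 21 d, with Matn1 at 0. The part of these cell types in the rise of Acan, Matn3 and Hapln1 or the lower level of Chad was not tested.

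Mice of the same time point also differed from each other, and some of the 7 genes did so together. For each gene, the mean of its time point was taken from each mouse on the log2(CPM + 1) scale, and the 15 pairs of 6 genes were correlated over all 30 mice, permuting mice within time points (100000 resamples, two-sided, Benjamini-Hochberg adjusted over the 15 pairs). Acan and Hapln1 had Pearson's r = 0.694 (permutation p = 0.00134, adjusted p = 0.01) and Spearman's rho = 0.694 (adjusted permutation p = 0.0151), and r was 0.645 without the 2 mice farthest from the median in Acan. Within dates, r was 0.739 over 14 mice with the earlier and 0.823 over 11 mice with the later dates (mice that share both time point and dates with another mouse). Comp and Chad had r = 0.63 (permutation p = 0.00084, adjusted p = 0.01) and rho = 0.637 (adjusted permutation p = 0.0151). Without the 2 mice farthest in Comp r was 0.560, and within dates it was 0.845 and 0.206, so the relation was not seen at the same size in the later mice. Acan and Comp had r = 0.564 (permutation p = 0.0112, adjusted p = 0.0457) and rho = 0.570 (adjusted permutation p = 0.0483), with 0.502 without the 2 farthest mice and 0.617 and 0.722 within dates. Acan and Chad had r = 0.535 (permutation p = 0.0122, adjusted p = 0.0457), but rho = 0.362 (adjusted permutation p = 0.204), and r fell to 0.367 without the 2 farthest mice, so that it rested on those mice. Within dates it was 0.758 and 0.174. Sox9 passed with none of the other 5 genes (r from -0.23 to 0.16), though among the mice with the earlier dates its r was 0.811 with Chad, 0.663 with Hapln1, 0.642 with Acan and 0.541 with Comp, and among the later ones -0.25, 0.302, 0.198 and -0.16. No Matn3 pair passed either, the nearest being Hapln1 (r = 0.477, adjusted permutation p = 0.151). How often other pairs of genes reach such values was not examined, so the correlations are not shown to be particular to these genes.

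**Figure D5:**
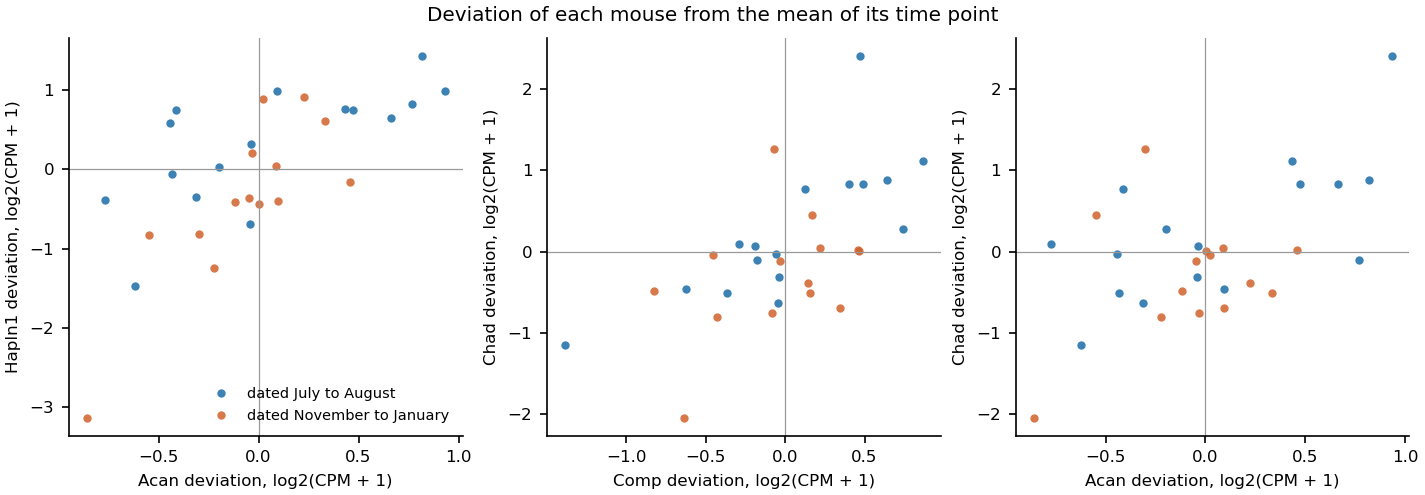
Deviation of each of the 30 mice from the mean of its time point, on the log2(CPM + 1) scale, for 3 pairs of genes, coloured by the dates in the labels. Pearson's r was 0.694 for Acan and Hapln1, 0.63 for Comp and Chad and 0.535 for Acan and Chad. The mouse lowest in Hapln1 is replicate 3 at 7 d.

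The genes whose levels over the 30 mice were most like Matn3, by Pearson's r of log2(CPM + 1), were Col5a1 (0.90), Lsp1 (0.90), Sparc (0.89), Prss35 (0.89) and Col6a2 (0.88), and these points share time, library and depth. Col5a1 and Col6a2 encode collagens of general connective tissue, and Sparc a collagen-binding protein abundant in bone. Of the 7 genes, Acan (0.88) and Hapln1 (0.72) were nearest to Matn3, and Chad (-0.54) was farthest. Among the cartilage collagens, Col11a1 ranked 18 with r = 0.85, Col9a1 ranked 60 and Col2a1 ranked 400 with r = 0.59. The genes most like the mean profile of the 6 genes were Bmp5 (0.86), Col8a2 (0.83), F5 (0.82), Adamts2 (0.81) and Mfap2 (0.81). Bmp5 had 57.6 CPM at 0 h and 92.0 CPM at 21 d. With a pseudocount of 0.1 in place of 1, 3 of the 5 genes most like Matn3 and 2 of the 5 most like the mean profile were shared, so these lists depend on how low values are weighted.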

How the data were processed

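RNA-seq of P3 from 30 mice was analysed. Per the labels and the study's methods, the authors made libraries by a ligation protocol from poly(A) RNA, read them as single ends of 65 bases, mapped them with Bowtie to Ensembl v75 mouse genes (at most 2 mismatches and 200 hits) with RSEM 1.2.3 (mm10) giving TPM and expected counts for each gene. The deposited expected counts are not normalized, and the deposited TPM are relative to all genes of a mouse, so a few abundant genes can move the rest. The authors also deposited a table of average TPM per time point, which was not used here. Reads from similar genes are shared out by estimate.

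Expected counts were rounded and tested in R 4.3.3 with edgeR 4.0.16 (TMM, filterByExpr by time point, quasi-likelihood tests, all 30 mice in 1 fit, no covariate, p adjusted by Benjamini-Hochberg, threshold 0.05). Tested were 13793 of 20321 genes, which hold 99.9% of counts. The script was tested on simulated data. Tables and correlations were made in Python 3.11.15 with scipy 1.17.1. No 2 mice of 1 time point looked like 1 library (39 pairs, chi-square per degree of freedom of at least 9.83). The 0 h mice serve in every contrast against 0 h. P-values measure the spread between mice. Promoters are RefSeq's, found for 5 of the 7 genes.

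The genes and lists were chosen with earlier results of these data known. Named beside the 7 genes are list genes that passed over time or late, to at most 6 a list, 6 genes that define cartilage and its hypertrophy, and the 5 genes most like each profile; Prg4, Clec3a, Cilp, Matn4, Thbs4, Col9a3, Adamts5 and the genes with too few counts were named after their values were seen. The alternatives were DESeq2 1.42.0 size factors, DESeq2's test, no filter, the dates as a covariate, no left-foot mice, each mouse left out in turn, other scales for likeness and other factors for TPM.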

Additional observations from a re-analysis of the deposited data

Results flagged for a closer look

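At 7 d, Hapln1 was lowest in replicate 3, a left-foot digit with no Hapln1 count, whose gap to the next mouse was 0.664 of the range of the 6 mice, past the 95% critical value of Dixon's test. At 7 d, Ihh was highest in replicate 1, with a gap of 0.744 of the range, but on 3 counts in that mouse and 1 in all others together. Of 38 measures examined at 7 d these 2 passed, and chance alone gives about 1 in 20, or 1.9.

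Of 30 combinations of gene and time, 2 moved in opposite directions in the mice of the earlier and the later dates, every mouse of one set above and every mouse of the other below 0 h. Comp at 3 d differed from 0 h by 0.62 on the log2(CPM + 1) scale within the earlier dates (2 against 1 mice) and by -0.90 within the later ones (1 against 2). Sox9 at 24 h differed by 0.40 within the earlier dates (2 against 1) and by -0.57 within the later ones (1 against 2). With at most 2 mice a side in both, such a split arises often by chance, so it tells nothing about the dates. The difference between the dates was not tested in either case.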

How the results depend on the processing

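Of 512 values recomputed under alternatives that leave out no single mouse, 467 kept their direction and side of the threshold or moved by less than the spread, and of 2670 values with 1 mouse left out, 2449 did. Counts are given for the 7 genes (6 fitted) and for the 41 list genes. Against 0 h, list genes called at 6 h went from 1 to 2 with no filter, 3 with the dates as a covariate, 3 without left-foot mice and 6 with DESeq2's test, at 12 h from 1 to 2 with no filter and 4 with DESeq2's test, and at 24 h from 3 to 5 without left-foot mice and 6 with DESeq2's test. Of the 7 genes, calls at 7 d went from 0 to 1 (Matn3) and at 21 d from 2 to 4, both without left-foot mice and with DESeq2's test. From 7 d to 14 d they went from 0 to 1 (Acan) with the dates as a covariate and with DESeq2's test, and from 7 d to 21 d from 1 to 2 with the dates as a covariate and without left-foot mice. List genes called from 7 d to 21 d went from 9 to 15 with DESeq2's test. With 1 mouse left out, calls of the 7 genes against 0 h ran from 0 to 1 at 7 d, 0 to 3 at 14 d and 1 to 4 at 21 d, and from 7 d to 14 d from 0 to 1. List genes ran from 0 to 3 at 3 h, 0 to 2 at 6 h, 0 to 2 at 12 h, 2 to 5 at 24 h, 2 to 5 at 3 d and 5 to 12 at 21 d, and against 7 d from 3 to 9 at 14 d and 4 to 9 at 21 d. At 21 d, Adamts1 turned sign to 0.28 with the dates as a covariate and ran from -0.48 to 0.73 with 1 mouse left out, and Sox6 from -0.36 to 0.034. The cause was not tested. No paired analysis was possible because the labels give no replicate numbers, and the tags in the titles recur between times for too few mice to pair any groups compared. At 3 to 6 mice a time and 3167625 counts in the shallowest library, small changes of Matn1, Matn3, Ihh and Col9a1 could not be seen.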

Other observations

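Of the 56 other cartilage genes, 15 had too few counts to be fitted, and they include several that are specific to cartilage. Otos had no count in any mouse. Ucma, a protein of the upper growth plate, was found in 7 of 30 mice with at most 7 counts, Nkx3-2, a repressor active in early chondrocytes, in 5 mice with at most 4 counts, and chondromodulin (listed as Lect1) in 17 mice with at most 13 counts. Snorc (listed as 3110079O15Rik), a transmembrane proteoglycan of cartilage, was found in 17 mice with at most 10 counts.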
